A study of Mus musculus with 6 samples.

Results

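The core circadian clock was examined through 10 genes, its activators Arntl, Clock and Npas2, its repressors Per1, Per2, Per3, Cry1, Nr1d1 and Nr1d2, and its output factor Dbp. They were chosen by symbol, each matched 1 row, and they are 10 of the 20494 gene clusters listed in the authors' deposited table. The table compares whole lungs of untreated male C57BL/6 mice of 4 months, with 3 libraries from lincRNA-Cox2 knockout and 3 from wild type animals. The targeted gene makes a long noncoding RNA and lies beside Ptgs2, which encodes inducible cyclooxygenase. The sources used here give neither how the knockout allele was made nor the hour at which the lungs were taken. Nothing in the labels pairs a knockout mouse with a wild type mouse, and the table gives means of each genotype, not values of single libraries.

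The mammalian clock is a feedback loop of transcription. BMAL1 (encoded by Arntl) pairs with CLOCK or NPAS2, binds E-box sequences and drives the Per and Cry genes, whose proteins then block that pair. In a second loop the nuclear receptors REV-ERB alpha and beta (Nr1d1 and Nr1d2) repress Arntl and other genes through ROR elements, where ROR proteins activate, and a further arm runs through D-boxes, which DBP activates and NFIL3 represses. In most tissues, lung included, transcripts of Arntl and Npas2 peak near the opposite time of day to those of Nr1d1 and Dbp, and the lung clock is known for its part in daily changes of airway and innate immune responses.

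Elements known to carry this mutual regulation were looked up in the members' promoters, since the comparison between genotypes sets activators beside the repressors they drive. RefSeq promoter windows (GRCm38.p6, the assembly of mm10, 250 bases before to 50 after an annotated start) were at hand for 9 of the 10 genes, with 13 starts in all, and Per2 had no entry. Both strands were searched for the E-box CACGTG, the D-box as TTATGTAA or TTACGTAA, the ROR element as TAGGTCA or TGGGTCA, and the cAMP response element TGACGTCA, through which stimulus-induced genes are driven. These motifs do not contain one another. The 4 windows with a match are shown 5′ to 3′ on the gene's strand with the matched letters in capitals.
Cry1 (E-box, chr10:85185005-85185304, minus strand): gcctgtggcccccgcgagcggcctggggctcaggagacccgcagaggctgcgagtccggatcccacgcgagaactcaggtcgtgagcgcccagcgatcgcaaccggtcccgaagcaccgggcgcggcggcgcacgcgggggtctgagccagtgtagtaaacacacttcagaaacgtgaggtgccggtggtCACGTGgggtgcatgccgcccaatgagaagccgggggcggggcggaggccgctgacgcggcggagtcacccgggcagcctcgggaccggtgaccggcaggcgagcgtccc
Per1 (E-box, chr11:69098699-69098998, plus strand): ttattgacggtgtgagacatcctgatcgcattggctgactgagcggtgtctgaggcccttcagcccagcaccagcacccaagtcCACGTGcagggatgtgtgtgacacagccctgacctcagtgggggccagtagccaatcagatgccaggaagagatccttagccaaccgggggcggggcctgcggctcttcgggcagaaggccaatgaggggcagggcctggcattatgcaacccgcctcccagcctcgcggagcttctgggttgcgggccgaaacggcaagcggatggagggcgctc
Per3 (D-boxes, chr4:151044616-151044915, minus strand): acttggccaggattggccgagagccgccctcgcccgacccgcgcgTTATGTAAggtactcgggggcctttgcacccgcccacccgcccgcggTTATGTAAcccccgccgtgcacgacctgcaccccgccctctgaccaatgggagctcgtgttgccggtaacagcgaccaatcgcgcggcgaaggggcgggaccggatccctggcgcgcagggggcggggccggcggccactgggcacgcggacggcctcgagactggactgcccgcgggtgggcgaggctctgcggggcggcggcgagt
Arntl (ROR element, chr7:113207261-113207560, plus strand): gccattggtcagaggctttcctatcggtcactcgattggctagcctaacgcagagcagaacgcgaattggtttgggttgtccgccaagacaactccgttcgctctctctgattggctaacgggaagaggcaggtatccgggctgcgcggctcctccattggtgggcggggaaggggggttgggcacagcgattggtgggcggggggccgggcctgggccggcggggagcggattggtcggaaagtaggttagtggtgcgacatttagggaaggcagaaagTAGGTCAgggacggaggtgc

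The E-box of Cry1 begins 60 bases before the start and that of Per1 166 bases before it. Per3 holds 2 D-boxes with the same letters, beginning 205 and 158 bases before its start, and the ROR element of Arntl begins 30 bases after the start. Each distance is from the annotated start of the window shown, and the other windows of Arntl and Per1 held no match. Nor did any window of Clock, Npas2, Nr1d1, Nr1d2 or Dbp. Of the 13 member windows, 2 held the E-box, 1 a D-box and 1 a ROR element, and these counts were not tested. Among all 32851 windows of the same length, 7.15% hold the E-box, 1.06% a D-box, 6.45% a ROR element and 1.79% the cAMP response element. No member window held the last of these, which says only that those letters are not in these windows. A match is a description of the sequence and was not linked to binding here.

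In wild type lung the clock transcripts spanned a wide range. To compare genes, each group mean of normalized counts was divided by the length of the gene's merged exons in GENCODE M21, which is not the authors' own gene model. On this per-kilobase scale of level, Nr1d1 was the highest at 4041 and Npas2 the lowest at 18.1, a 223-fold range. Dbp followed at 1902, Nr1d2 at 1641, Per1 at 938, Per2 at 500 and Per3 at 367. The activator Clock stood at 281 and the repressor Cry1 at 199, and there was then a 5.48-fold step down to Arntl at 36.3. Each of the 9 steps between neighbours in this order was larger than 1.96 standard errors taken from the spread between libraries. The smallest was that from Dbp to Nr1d2 (1.16-fold). These errors hold neither counting error nor any error of the exon lengths, so they do not settle the order of near neighbours. Of the Dbp exons, 18.0% also overlap a gene on the other strand. The level of Dbp was thus 52.4 times that of Arntl in wild type, and 40.6 times in knockout. Both lungs therefore held abundant Nr1d1 and Dbp beside scarce Arntl and Npas2 transcripts.

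**Figure D1:**
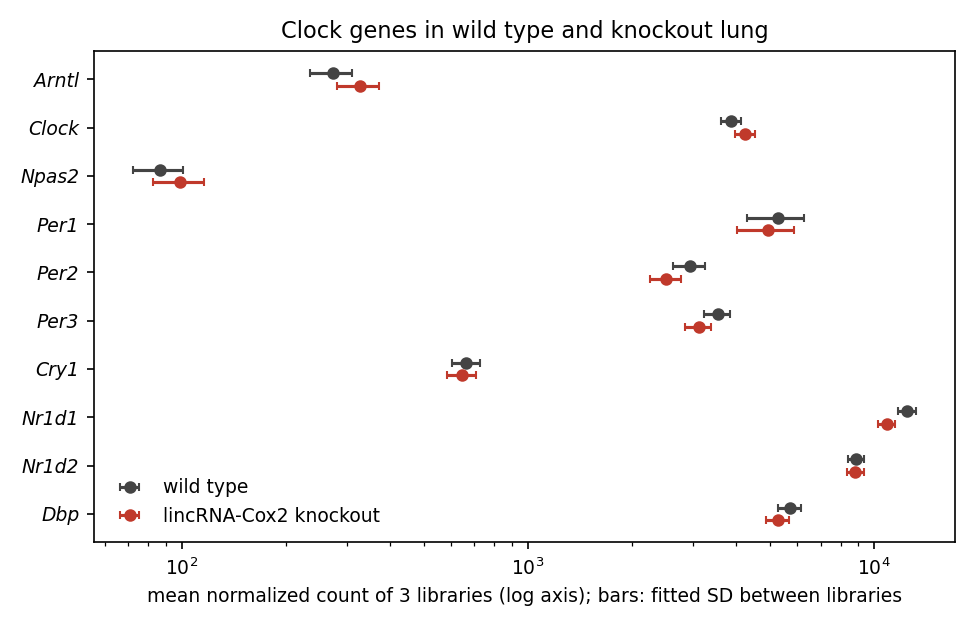
Mean normalized count of the 10 clock genes in wild type (grey) and knockout (red) lung on a log axis, from the authors' deposited table, with bars of 1 SD between libraries as fitted in the authors' model. Nr1d1 is the highest gene (12434 and 10861) and Npas2 the lowest (86.8 and 99.2), and the bars of the genotypes overlap for all genes except Nr1d1.

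None of the 10 clock genes passed the test between genotypes, against 1.09% of all 16902 features with an adjusted p that were called in the authors' DESeq2 comparison (adjusted p under 0.05). At an unadjusted p under 0.05 there was 1 of the 10, Nr1d1, which was lower in knockout, against 8.47% of all features (4.43% higher and 4.04% lower). With the adjustment made over every feature with a p-value, or over those with a mean of at least 50, none of the 10 was called either, against 0.820% and 1.20% of features. The direction of the means split by role, in that the 3 activators had a higher mean in knockout and all 7 repressors and outputs a lower one, while of all features 49.4% had a higher and 50.6% a lower mean in knockout. This split was not tested. The genes regulate one another and were read in the same 6 libraries, so their directions are not independent of each other. The log2 ratios of knockout over wild type ran from -0.22 to 0.26 with a median of -0.07, and their median size without sign was 0.16, against 0.07 over all features. All ratios and folds given here are of the deposited group means, and the authors' own shrunken log2 fold changes lie nearer to 0 (0.13 for Arntl and -0.17 for Nr1d1).

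Among the activators, Arntl (kgCluster27155, chromosome 7 from 113207465 to 113314126 in mm10, as for the positions that follow) encodes BMAL1, the partner that the loop cannot do without. Its mean was 273 normalized counts in wild type and 327 in knockout per the authors' deposited table, the largest of the members' ratios at 1.20-fold. The log2 ratio was 0.26 ± 0.18 (SE), with an adjusted p of 0.812 in the authors' DESeq2 comparison. The 95% interval ran from 0.943-fold to 1.52-fold. Clock (kgCluster21645, chromosome 5 from 76209868 to 76304792), the DNA-binding partner of BMAL1, had means of 3861 and 4240 normalized counts per the authors' deposited table (log2 ratio 0.14 ± 0.08, adjusted p = 0.731). Npas2 (kgCluster222, chromosome 1 from 39193731 to 39363236), a paralog of Clock that can stand in for it, had means of 86.8 and 99.2 per the authors' deposited table (log2 ratio 0.19 ± 0.23, adjusted p = 0.974). For all 3, the difference was smaller than 1.96 standard errors.

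The Period genes encode the repressors that accumulate with CRY proteins. Per2 (kgCluster727, chromosome 1 from 91415982 to 91459324) had means of 2930 in wild type and 2511 in knockout, 1.17-fold lower per the authors' deposited table (log2 ratio -0.22 ± 0.13, unadjusted p = 0.0758, adjusted p = 0.687). Per3 (kgCluster20839, chromosome 4 from 151003652 to 151044665), whose window holds the pair of D-boxes, had means of 3529 and 3110 per the authors' deposited table (log2 ratio -0.18 ± 0.10, unadjusted p = 0.0772, adjusted p = 0.689). Per1 (kgCluster4150, chromosome 11 from 69095217 to 69109960), which is also induced within the hour by cAMP and by glucocorticoids, had means of 5284 and 4939 per the authors' deposited table (log2 ratio -0.10 ± 0.22, adjusted p = 0.997). Its interval was the widest among the Period genes, from 0.694-fold to 1.26-fold. Cry1 (kgCluster2661, chromosome 10 from 85131700 to 85185064), a strong repressor of the CLOCK and BMAL1 pair, had means of 664 and 646 per the authors' deposited table (log2 ratio -0.04 ± 0.12, adjusted p = 0.997).

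Nr1d1 (kgCluster4837, chromosome 11 from 98767932 to 98775333) was the member with the smallest p-value. Its mean was 12434 normalized counts in wild type and 10861 in knockout, 1.14-fold lower per the authors' deposited table. The log2 ratio was -0.20 ± 0.07 (SE), with a 95% interval from 0.794-fold to 0.961-fold, the 1 interval of the 10 that did not hold equality. Its unadjusted p was 0.00532 and its adjusted p 0.202 in the authors' DESeq2 comparison, and 2.63% of all features had a smaller p. The paralog Nr1d2 (kgCluster7973, chromosome 14 from 18204054 to 18239127), which encodes REV-ERB beta, had means of 8878 and 8826 per the authors' deposited table (log2 ratio -0.01 ± 0.07, adjusted p = 0.998). Its interval, from 0.908-fold to 1.09-fold, was narrow. The difference between the 2 paralogs was not tested. The 3′ end of Nr1d1 overlaps Thra, the thyroid hormone receptor alpha gene on the other strand, over 263 exon bases or 8.55% of the Nr1d1 exons in GENCODE M21. The library kit named in the labels does not mark strand, so reads from that stretch cannot be told apart. Thra itself had means of 6971 and 6671 per the authors' deposited table (log2 ratio -0.06, adjusted p = 0.936).

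Dbp (kgCluster25869, chromosome 7 from 45705088 to 45710203), the D-box activator and a direct readout of CLOCK and BMAL1, had means of 5692 and 5278 normalized counts per the authors' deposited table (log2 ratio -0.11 ± 0.09, adjusted p = 0.899). Its interval ran from 0.819-fold to 1.05-fold. Dbp shares 539 exon bases, 18.0% of its exons, with Sphk2 on the other strand, a sphingosine kinase gene with means of 3706 and 3438 per the authors' deposited table (log2 ratio -0.11, adjusted p = 0.804). For Arntl the shared stretch was 33 exon bases with the antisense model Gm45355, 0.439% of its exons.

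**Figure D2:**
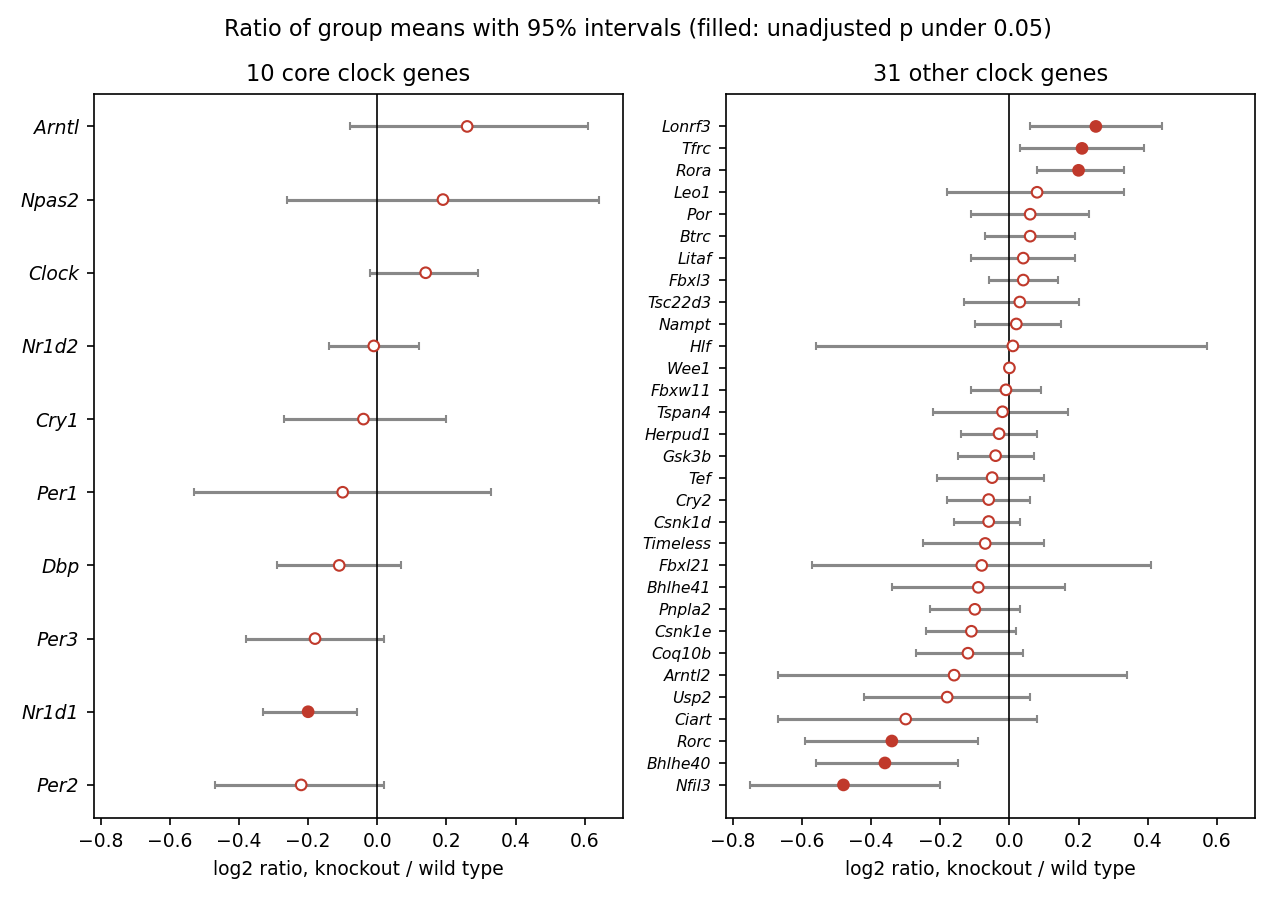
Log2 ratio of the group means, knockout over wild type, with 95% intervals derived from the authors' Wald statistics, for the 10 core clock genes (left) and 31 other clock genes with an adjusted p (right); filled points have an unadjusted p under 0.05, and Wee1 has no interval. Arntl, Npas2 and Clock lie right of 0 and the other 7 core genes left of it, while the interval of Nr1d1 alone among the 10 does not reach 0.

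The intervals bound only the difference in mean level between the genotypes in these lungs. Each was derived for its own gene from fitted errors, and they are not joint bounds for the set. The hour of collection is not given for either genotype, so a change in the phase or amplitude of the rhythm was not tested. All 10 intervals lay within 2-fold in either direction, and 8 lay within 1.5-fold. The 2 that did not lie within 1.5-fold were Arntl and Npas2, the scarcest transcripts, whose upper bounds were 1.52-fold and 1.56-fold. An adjusted p above the threshold does not show that the genotypes have equal levels, and for Per1 the interval holds both a 1.26-fold higher and a 0.694-fold level.

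The spread between mice of the same genotype was larger for the 10 core clock genes than for the median feature of like level. A coefficient of variation (CV) within genotype, with counting error removed, was derived from the authors' standard errors. It ranged from 5.53% for Nr1d2 to 18.6% for Per1, with a median of 8.97%. Against features whose mean lay within 2-fold of the member's own, all 10 members were above the median and 5 were above the 90th percentile. Per1 stood at the 99.2nd percentile (median CV of like features 5.09%), Per2 at the 98.3rd with a CV of 10.5%, and Per3 at the 95.7th with 8.59%. Dbp stood at the 93.2nd and Arntl at the 91.5th percentile, with CVs of 7.63% and 13.8%. The REV-ERB genes had smaller spreads, at the 72.2nd percentile for Nr1d1 (5.87%) and the 65.5th for Nr1d2, and Npas2 at 57.2 was the nearest to the median. This did not hold for every clock list and was also seen outside the clock. Of 8 genes of clock protein turnover 2 were above the median of like features (median percentile 25.0), while of 8 glucocorticoid-induced genes all 8 were above it and 4 above the 90th percentile (median percentile 90.6, against 88.9 for the core clock genes). Of 11 other core loop genes 7 were above the median, and of 11 clock-controlled outputs 9. The authors' model moderates such spreads toward a common trend and fits both genotypes together, so these are fitted values, and no test was made on them.

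**Figure D3:**
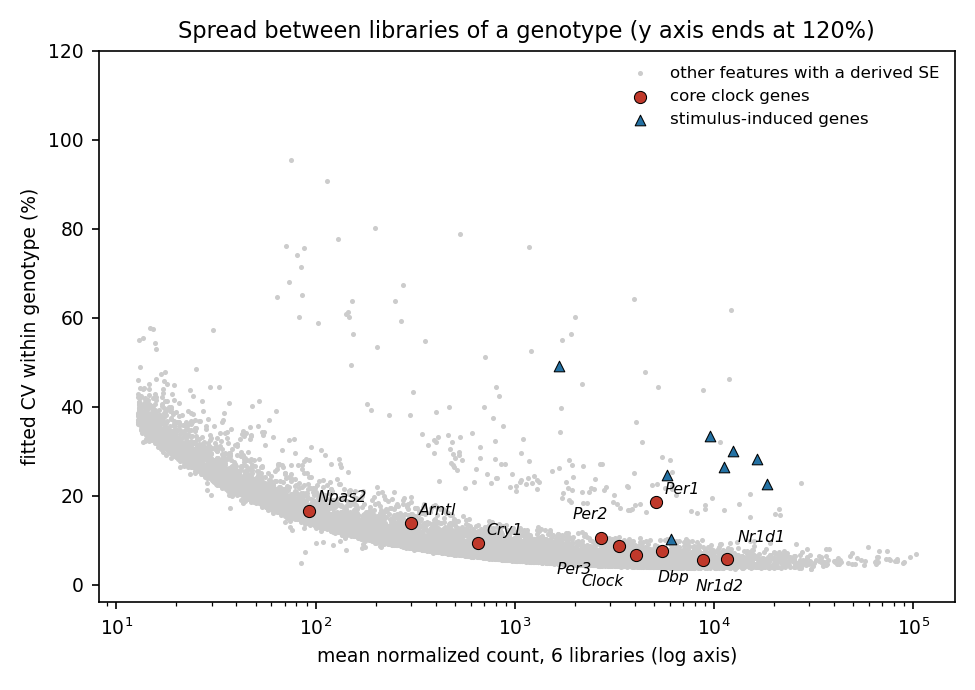
Fitted CV within genotype (percent) against the mean over all 6 libraries in normalized counts (log axis) for the core clock genes (red), stimulus-induced genes (blue) and other features with a derived standard error (grey); the y axis ends at 120%, above which 2 features lie. Per1, at 18.6%, stands above most features of like level, and Nr1d1 and Nr1d2 lie within the grey band.

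The rest of the clock was read from 32 further genes in 3 lists, of which 31 had an adjusted p. The one without was Rorb, at means of 7.70 and 14.2 per the authors' deposited table. None of the 31 was called in the authors' DESeq2 comparison, against 1.09% of all features. At an unadjusted p under 0.05 there were 6, 3 higher and 3 lower in knockout, that is 19.4% against 8.47% of all features. The median log2 ratio of the 31 was -0.04, against 0.00 over all features. In the list of other core loop genes 4 of 11 had such a p, in the list of protein turnover genes 0 of 8, and in that of clock-controlled outputs 2 of 12. The lists were chosen with earlier results of these data known, so these shares are descriptions and not tests of enrichment.

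Among the core loop genes with such a p were 3 factors that act on the same elements as the members. Nfil3, the repressor at D-boxes, had means of 418 and 301 per the authors' deposited table, 1.39-fold lower (log2 ratio -0.48 ± 0.14, adjusted p = 0.0555). Bhlhe40, which encodes DEC1, a repressor at E-boxes, had means of 4845 and 3779 there, 1.28-fold lower per the authors' deposited table (-0.36 ± 0.10, adjusted p = 0.0513). With the adjustment made over features with a mean of at least 50, its adjusted p was 0.0482 (range over the adjustments 0.0482 to 0.0621). Rora, the activator at ROR elements, had means of 2933 and 3375, 1.15-fold higher per the authors' deposited table (0.20 ± 0.06, adjusted p = 0.0845). At an adjusted p under 0.1, Nfil3, Bhlhe40 and Rora would be called, 3 of 31 or 9.68%, against 1.77% of all features. This share too comes from lists chosen with earlier results of these data known, and it was not tested.

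From each list the 2 genes of highest mean among those without such a p were also read, so their small ratios follow in part from that choice. Cry2, the paralog of Cry1, had means of 3899 and 3740 per the authors' deposited table (log2 ratio -0.06 ± 0.06), and Tef, a D-box activator related to Dbp, 16258 and 15675 (-0.05 ± 0.08). Of the kinases that mark PER and CRY proteins for decay, Csnk1d had means of 7067 and 6768 and Gsk3b 6112 and 5957 per the authors' deposited table (log2 ratios -0.06 ± 0.05 and -0.04 ± 0.06). Among clock-controlled outputs the genes at an unadjusted p under 0.05 were Lonrf3, with means of 662 and 788 per the authors' deposited table (0.25 ± 0.10, adjusted p = 0.285), and Tfrc, the transferrin receptor gene, with means of 4456 and 5144 there (0.21 ± 0.09, adjusted p = 0.460). Por, the electron donor of cytochrome P450 enzymes, and Tsc22d3, encoding the glucocorticoid-induced GILZ, had log2 ratios of 0.06 ± 0.09 and 0.03 ± 0.08.

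Per1 belongs to 2 further responses, so their genes were set beside it. These lists too were chosen with earlier results of these data known, so their counts of called genes are descriptions. Of 10 stimulus-induced genes, which respond within minutes to cAMP and other signals, 4 were called, all lower in knockout, against 0.497% of all features called lower, and the median log2 ratio was -0.90. They were Sik1, a kinase gene driven by cAMP, at 7392 and 4723 normalized counts per the authors' deposited table (1.57-fold lower, adjusted p = 6.14e-05), Nr4a1, an orphan nuclear receptor, Egr1 and Atf3, whose group means in the authors' deposited table were 3.31-fold, 2.35-fold and 4.55-fold lower (adjusted p = 0.00256, 0.0464 and 0.0413). The authors' shrunken log2 fold changes of these genes were far smaller, at -0.42 for Sik1, -0.28 for Nr4a1, -0.23 for Egr1 and -0.17 for Atf3, against log2 ratios of the means of -0.65, -1.73, -1.23 and -2.19, and no standard error of the ratio could be derived for Atf3. Adjusted over every feature with a p-value, Egr1 and Atf3 were no longer called, with adjusted p-values of 0.0562 and just over 0.05 (lowest over the adjustments 0.0437 and 0.0390). The log2 ratio was -0.10 ± 0.22 for Per1 and -0.65 ± 0.12 for Sik1, and the difference between them was not tested. The fitted CV of 8 of these genes ranged from 10.3% to 49.1%, all above the 90th percentile of like features, as was that of Per1. Of 8 glucocorticoid-induced genes 1 was called, Zbtb16, lower in knockout, against 0.497% of all features called lower. Per the authors' deposited table, its wild type mean was 1.67 times the knockout mean (adjusted p = 1.55e-05, shrunken log2 fold change -0.46). The median log2 ratio of this list was -0.19, and 6 of its genes had a lower and 2 a higher knockout mean. A shift of the glucocorticoid list as a whole was not tested.

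**Figure D4:**
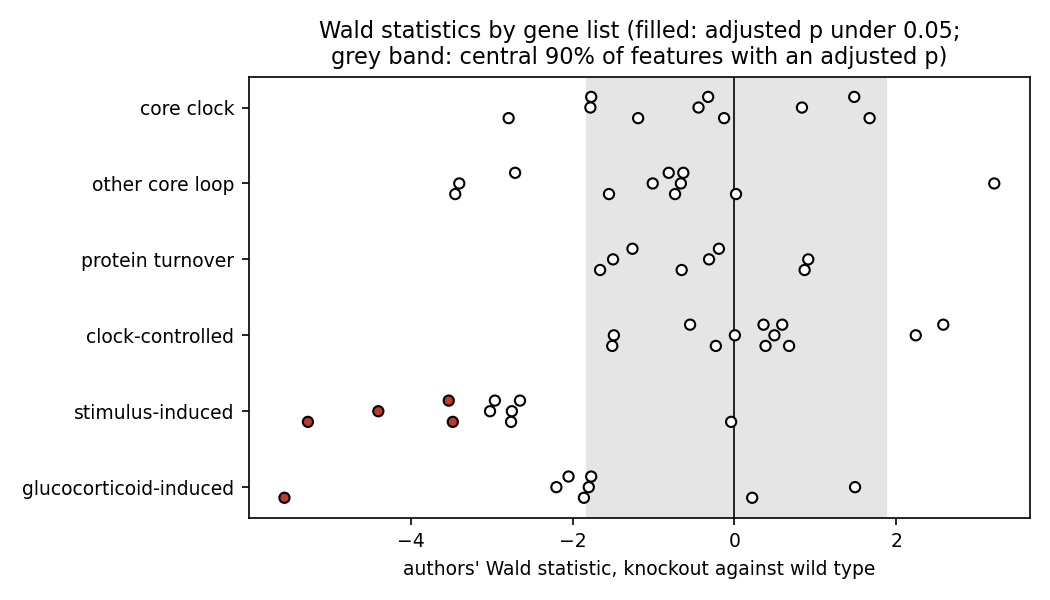
The authors' Wald statistic of each gene with an adjusted p in the core clock, the 3 other clock lists and the stimulus-induced and glucocorticoid-induced lists; filled points have an adjusted p under 0.05 and the grey band holds the central 90% of all features, from -1.82 to 1.87. Of the 10 core clock genes Nr1d1 lies outside the band, at -2.79, and no point of the 4 clock lists is filled.

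The targeted transcript and the tissue were checked in the same table. Lincrna-cox2 had means of 311 in wild type and 0.666 in knockout per the authors' deposited table (adjusted p = 4.05e-91). Markers of alveolar type 1 and type 2, endothelial and airway cells were present in full, and of 5 liver markers 4 were not matched by symbol. Of 5 brain markers 4 were found, and Avp was not matched. Over all 6 libraries the mean of Mbp was 3229, and those of Snap25, Gfap and Syt1 were 16.2, 17.6 and 22.5. Beside the clock genes, 7 of 7 neutrophil markers found (Ly6g was not matched) had a higher knockout mean. Of these 6 were called, against 0.592% of all features called higher (summed level 7676 in wild type and 12164 in knockout). Summed levels in wild type and knockout were 27730 and 23557 for smooth muscle, 4242 and 2605 for adipocyte and 16022 and 13118 for heart muscle markers. They were 51814 and 47431 for fibroblast, 23849 and 25837 for macrophage, 5751 and 5199 for lymphocyte and 81726 and 89590 for red cell markers. Of the smooth muscle markers 1 was called, lower in knockout, against 0.497% of all features called lower. Of the adipocyte, heart muscle, fibroblast, macrophage, lymphocyte and red cell markers 0 were called, against 1.09% of all features. The sums carry no standard error, and the fitted CV of Cfd, the adipocyte marker of highest mean, was 55.0%. The part of these cell types in the clock genes' values was not tested. In whole lung fewer cells of a type and less RNA per cell cannot be told apart. Npas2 and Per2 lie on the chromosome of the targeted locus, 110.7 Mb and 58.6 Mb from Ptgs2.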

How the data were processed

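Whole lung RNA was read in 6 libraries (3 per genotype) made from 500 ng of RNA with the TruSeq RNA kit v2 and 50 bp paired ends, per the labels' protocols. Per the submitters' processing notes, the tools were DESeq2, STAR 2.5.1b, Bowtie2, bedtools and SAMtools and the build was mm10, without their roles. The counting rule is not given in the sources used here. The authors deposited 1 table of 20494 gene clusters. Per the file headers, its means are a signal in normalized counts, and their sums were 37118488 in wild type and 36839329 in knockout per library, which is not a depth. The authors deposited a shrunken log2 fold change with its standard error, a Wald score and 2 p-values (raw and adjusted) from DESeq2; 16902 clusters had an adjusted p.

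Genes were called at an adjusted p under 0.05. Ratios are of the deposited group means. Their standard errors are the log2 ratio divided by the Wald score, since shrinkage scales estimate and error alike. This needs a relation between shrunken error and shrinkage. It was checked on 9116 features with a mean of at least 50 and a log2 ratio beyond 0.05 in size, of which 99.9% met it within 5%. Of all 16902 features with an adjusted p, 16217 (95.9%) met it and were used. Intervals are the ratio ± 1.96 such errors. The CV is the square root of the dispersion that these errors imply, less counting error. On simulated data only the step to the standard error, which holds by algebra, and the adjustment of p-values were checked. The step to the CV was not. Planned tests on library values were not run: for the members, rounding leaves between 1.02 and 20873099 sets of reads by chance for 1 group mean, so library values, and genes of like pattern across libraries, could not be derived. That the libraries come from separate mice is read from the labels' protocols.

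Members and lists were chosen with earlier results of these data known. All 10 members are named; of other clock lists, genes at an unadjusted p under 0.05 and the 2 of highest mean besides; of the stimulus and glucocorticoid lists, up to 4 called genes. Thra, Sphk2 and Gm45355 were named for their exon overlap. For a symbol with several rows the highest mean was used. Promoters came from RefSeq (GRCm38.p6) and positions from GENCODE M21. Software was Python 3.11.15 with numpy 2.4.6, pandas 2.3.3, scipy 1.17.1 and matplotlib 3.10.9. A gene of the other core loop list is counted but not reported by name here.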

Additional observations from a re-analysis of the deposited data

How the results depend on the processing

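The count of called core clock genes was 0 of 10 under each of the 3 alternatives, namely adjustment over every feature with a p-value, adjustment over features with a mean of at least 50, and a threshold of 0.1. Of all features, 0.820%, 1.20% and 1.77% were called under these alternatives in turn, against 1.09% as deposited. At an unadjusted p under 0.05 the count was 1 of the 10 in the authors' DESeq2 comparison, against 8.47% of all features. Among the 31 other clock genes the count was 0 as deposited and with adjustment over every feature, 1 with adjustment over features with a mean of at least 50 (Bhlhe40), and 3 at a threshold of 0.1 (Bhlhe40, Nfil3 and Rora). Of 16 genes followed, the direction of 0 changed when the shrunken fold change replaced the ratio of means. Shrinkage toward 0 keeps the sign, so this outcome was fixed beforehand and is no check. Shrinkage moved Arntl from 0.26 to 0.13 and Per1 from -0.10 to -0.04. Fits with limma on library values, with their settings, and fits without a library were not run because library values could not be derived. No paired analysis was possible because the table holds group means and the labels give no pairing. With 3 libraries per genotype and no library values, no single mouse could be checked.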
